A study of Mus musculus with 21 samples.

Results

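The 9 genes described here belong to the Ly6 family of mouse surface proteins: Ly6a, Ly6c1, Ly6c2, Ly6d, Ly6e, Ly6h, Ly6k, Ly6g6e and Ly6g6c. They are 9 of the 32285 genes listed in the time course tables, and 4 of them also passed the filter on low values in the Cyp26a1 set. The list was drawn up by gene name with the TPM values (transcript abundance scaled for length and library size) of all 21 libraries already known, so the genes were chosen by these values and their levels and differences are given as a description, without p-values.

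The study measured polyadenylated RNA of mouse embryonic stem cells (ESCs), cultured pluripotent cells derived from the early embryo, with 3 libraries per group. In the time course, wild-type ESCs stood at the start in serum medium with LIF, 1 µM PD0325901 and 3 µM CHIR99021, the latter pair known as 2i (ESC_0h). They were then taken to 12 h or 24 h either without LIF/2i and without retinoic acid (noRA_12h, noRA_24h) or with 2 µM retinoic acid, RA (RA_12h, RA_24h). In the Cyp26a1 set, wild-type (Cyp26a1_WT) and Cyp26a1 knockout ESCs (Cyp26a1_KO) both had LIF/2i removed and 2 µM RA added for 24 h. The labels do not say whether LIF/2i was also absent from the RA groups of the time course, they name no clone or line beyond ESC, and they do not state that replicates were separate cultures, so the errors cover the spread between these libraries only, which may be technical. Depth could only be estimated, from the most common ratio of coverage to FPKM, at 2.72 to 3.24 aligned gigabases in each library of the Cyp26a1 set. In the time course the same estimate gave 2.96 to 3.91 gigabases, but rests on a ratio held by only 9.89% to 10.6% of genes and is uncertain.

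Cyp26a1, the RA-degrading enzyme that the knockout targets, stood at 585 to 606 TPM in the 3 Cyp26a1_WT libraries and at 4.03 to 4.93 TPM in the 3 Cyp26a1_KO libraries. The 6 ESC markers, Pou5f1 and Nanog among them, summed to 6043 to 9199 TPM in every library. Ptprc, the pan-leukocyte marker, was at 0.110 TPM or less in the time course and listed at 0 in the Cyp26a1 set. The endothelial marker Cdh5 was at 0.585 TPM or less. The 7 blood cell markers together summed to 1.30 to 6.79 TPM and the 8 fibroblast markers to 6.83 to 20.3 TPM. The 6 endothelial markers summed to 74.5 to 122 TPM, of which Pecam1, which ESCs also express, supplied 69.9 to 118 TPM. In bulk RNA, fewer cells of a type and less RNA per cell cannot be told apart.

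Ly6 proteins are small, disulphide-rich domains that are mostly held on the outer cell surface by a glycosylphosphatidylinositol (GPI) anchor. Many are used as markers of blood cell types, and several respond to interferons. Ly6a encodes Sca-1, a marker of mouse blood stem cells. Ly6c1 and Ly6c2 encode the near-identical Ly-6C antigens of monocytes and endothelium. Ly6e is a receptor for the placental fusion protein syncytin-A and restricts some viruses. Ly6k acts with Tex101 in sperm, Ly6h is a brain protein that binds nicotinic acetylcholine receptors, and Ly6d marks keratinocytes and early B cells. Ly6g6e and Ly6g6c lie in the class III region of the major histocompatibility complex.

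Positions were read from GENCODE M21 on GRCm38 (mm10). On chromosome 15 lie Ly6d (chr15:74762056-74763620, minus strand), Ly6k (chr15:74796874-74799986, minus), Ly6e (chr15:74955051-74959905, plus), Ly6a (chr15:74994877-74998031, minus), Ly6c1 (chr15:75044018-75048830, minus), Ly6c2 (chr15:75108158-75111970, minus) and Ly6h (chr15:75551268-75567255, minus). Ly6g6c (chr17:35065388-35070050) and Ly6g6e (chr17:35076902-35078804) lie on the plus strand of chromosome 17. All 9 are annotated as protein-coding. The exons of Ly6k overlap the antisense gene Gm17189 over 395 bases, 47.6% of the exonic bases of Ly6k. Those of Ly6g6e overlap the opposite-strand gene Ly6g6d over 229 bases, 18% of its exonic bases, and those of Ly6g6c overlap Mpig6b over 22 bases. The strand setting of the counting is not stated, so reads of these pairs may have been split between them.

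Ly6c1 and Ly6c2 are shown as sequences because their reads are hard to assign to one gene. Their coding sequences of 393 bases each were 97.7% identical, against 81.8% between Ly6a and Ly6c1, 81.6% between Ly6a and Ly6c2, and at most 52.3% between any other 2 members. The longest identical coding stretch runs over coding bases 66 to 253 of both genes (Ly6c1, minus strand, from chr15:75048446 down to chr15:75045545, across an intron) and is 188 bases long:
Ly6c1 and Ly6c2 shared coding stretch: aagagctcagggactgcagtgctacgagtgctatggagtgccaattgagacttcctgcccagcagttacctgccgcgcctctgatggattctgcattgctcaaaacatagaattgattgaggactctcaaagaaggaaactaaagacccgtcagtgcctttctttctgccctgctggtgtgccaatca
A read that lies within this stretch cannot tell one gene from the other. Over whole transcripts, 19.0% of 75-base windows of Ly6c1 also occurred in another gene, as did 9.46% of those of Ly6c2 and 6.33% of those of Ly6a. With 150-base windows the shares were 2.29%, 1.43% and 0%. The other members that shared 75-base windows were Ly6k (24.5%, all with Gm17189) and Ly6g6e (11.0%, all with Ly6g6d).

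The first RefSeq start of each Ly6c gene lies just outside the M21 gene model, and the 160 bases before it are shown because the pair are near-copies whose levels differed. The letters are from the RefSeq promoter table (GRCm38.p6), 5′ to 3′ on the minus strand, with TATAAA and AGGTCA in capitals. AGGTCA is the hexamer whose repeats bind nuclear receptors such as the RA receptors.
Ly6c1 upstream, chr15:75048838-75048997: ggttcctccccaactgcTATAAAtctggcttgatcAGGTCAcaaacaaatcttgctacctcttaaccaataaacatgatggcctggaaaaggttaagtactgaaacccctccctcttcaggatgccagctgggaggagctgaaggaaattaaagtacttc
Ly6c2 upstream, chr15:75111972-75112131: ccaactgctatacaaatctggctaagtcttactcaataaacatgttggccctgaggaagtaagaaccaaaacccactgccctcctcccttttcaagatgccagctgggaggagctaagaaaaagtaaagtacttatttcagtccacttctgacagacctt
In Ly6c1, TATAAA stood at bases -143 to -138 and AGGTCA at -125 to -120, counted from the start. No match to either was found in the other Ly6c1 entry, where an M21 transcript does begin, or in the 300-base entries of Ly6c2. In the Ly6g6c entry TATAAA stood at -30 to -25. Of all 32851 promoters of the table, 13.6% held TATAAA and 16.3% held AGGTCA on either strand. The 250 bases upstream of the pair aligned over 227 columns with 72.2% identity. Direct repeats of AGGTCA spaced by 1, 2 or 5 bases, TTCNNNGAA (STAT; in 8.30% of all promoters) and the interferon regulatory factor motif (in 3.44%) had no match in the 5 entries of the 3 members found in the table, Ly6c1, Ly6c2 and Ly6g6c. Both strands were searched, and AGGTCA is contained in the direct repeats.

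The members fell into an abundant group and a scarce group. Ly6a and Ly6e reached 387 and 277 TPM, Ly6g6e, Ly6c1 and Ly6k reached 71.1, 28.8 and 20.3 TPM in their highest time course libraries, and Ly6c2, Ly6h, Ly6g6c and Ly6d did not exceed 2.70, 1.46, 1.16 and 0.368 TPM. The read depth of the scarce 4 was low, at a mean coverage of 1.22 or less per base in every time course library. In ESC_0h the summed TPM of all 9 genes was 362 to 416, of which Ly6e supplied 56.1% to 61.0%, Ly6a 19.6% to 21.6% and Ly6g6e 16.4% to 18.6%. At noRA_12h the sum was 621 to 699 TPM and Ly6a supplied 53.9% to 59.7%. At RA_24h it was 95.1 to 136 TPM, and Ly6k, at 2.04% to 2.71% in ESC_0h, supplied 13.0% to 18.5%. The order of Ly6e over Ly6a in ESC_0h depends on the measure: mean TPM was 233 against 81.0, but mean coverage was 84.9 against 85.6.

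**Figure D1:**
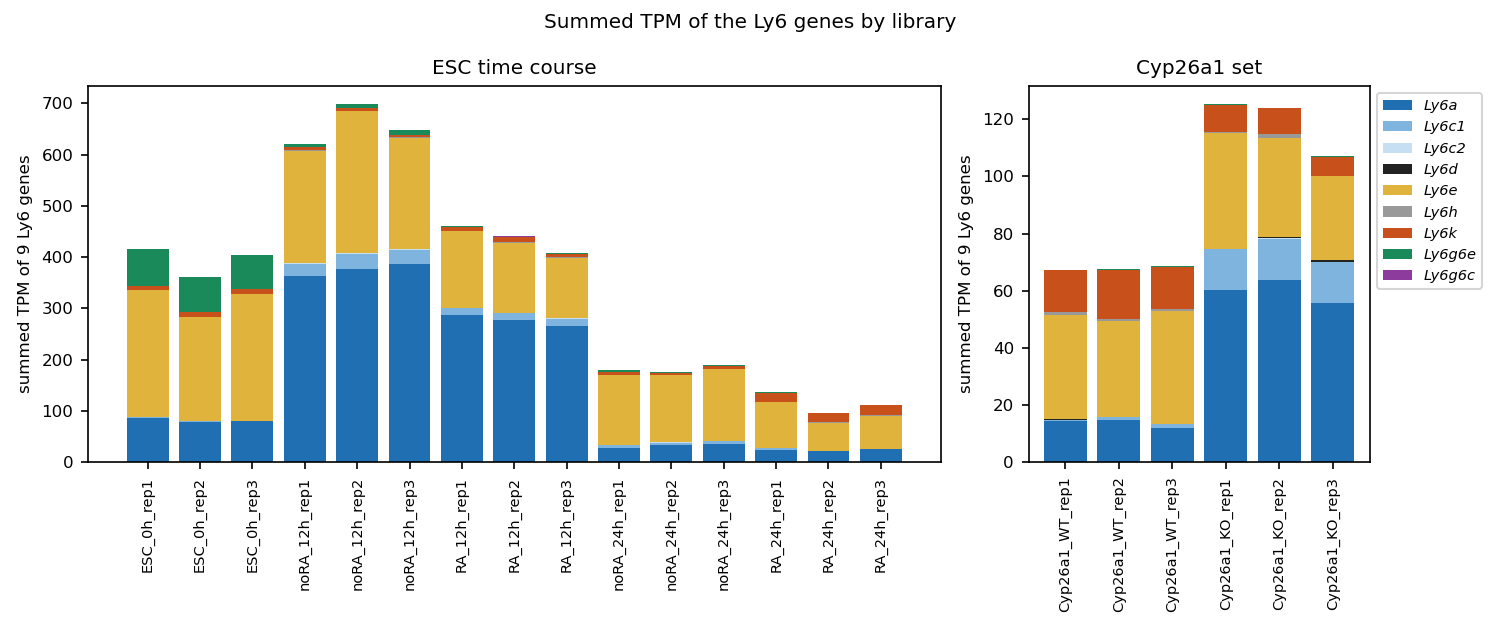
Stacked bars give the summed TPM of the 9 Ly6 genes in each library (vertical axes, TPM, each set on its own axis), coloured by gene. The bars are tallest at noRA_12h (621 to 699 TPM) and shortest at RA_24h (95.1 to 136 TPM) in the time course, and taller in the 3 Cyp26a1_KO libraries (107 to 125 TPM) than in the 3 Cyp26a1_WT libraries (67.3 to 68.7 TPM).

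The first comparison sets cells at noRA_12h and noRA_24h, out of the LIF/2i medium and without RA, against ESC_0h. No group was kept in LIF/2i to 12 h or 24 h, so removal of LIF/2i and time in culture cannot be told apart. Of the 8 members tested in the time course, 4 were higher at 12 h (Ly6a, Ly6c1, Ly6c2 and Ly6h) and 2 were lower (Ly6k and Ly6g6e). Of all 13948 genes tested, 22.0% were called higher and 20.4% lower at 12 h. At 24 h, 1 member was higher (Ly6c1) and 4 were lower (Ly6a, Ly6e, Ly6k and Ly6g6e), beside 25.4% and 26.5% of all genes. A call is an adjusted p under 0.05 (limma, Benjamini-Hochberg over all genes tested). Ly6d was never at 1 TPM and was not tested. Ly6c2 passed the filter of 1 TPM in 3 libraries only through its noRA_12h libraries, its highest group. Ly6h passed it through RA libraries and noRA_12h replicate 1. Ly6g6c passed it through ESC_0h replicates 2 and 3 and noRA_12h replicate 2. Because these values chose the genes, nothing is read from the counts.

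Ly6a was at 85.3, 78.3 and 79.4 TPM in the 3 ESC_0h libraries, at 363, 377 and 387 TPM at noRA_12h and at 28.2, 33.5 and 34.7 TPM at noRA_24h. Every 12 h library lay above, and every 24 h library below, all ESC_0h libraries. Its mean rose 4.64-fold by 12 h (log2 difference of TPM + 1, 2.20 ± 0.08 SE) and was 2.52-fold lower than ESC_0h by 24 h (-1.31 ± 0.08). Between noRA_12h and noRA_24h the means differed 11.7-fold.

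Ly6c1 was at 2.66, 1.30 and 0.733 TPM in ESC_0h, at 24.4, 28.8 and 26.0 TPM at noRA_12h and at 4.86, 4.48 and 5.40 TPM at noRA_24h. The 3 groups did not overlap. It rose 16.9-fold by 12 h (log2 difference 3.49 ± 0.26 SE) and at 24 h was 3.15-fold above ESC_0h (1.27 ± 0.26), where Ly6a had fallen below its start. Without ESC_0h replicate 1, its highest start library, these ratios were 26.0 and 4.84.

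Ly6c2 was at 0.258, 1.26 and 0.720 TPM in ESC_0h and at 1.28, 1.98 and 2.70 TPM at noRA_12h, groups that only just did not overlap (log2 difference 0.79 ± 0.22 SE). By noRA_24h it was at 0.341, 0.307 and 0.0728 TPM. Its call at 12 h was lost without ESC_0h replicate 1 (0.57), without noRA_12h replicate 3 (0.62) and when these 2 groups were fitted alone. At 24 h its difference (-0.46) did not pass the threshold, but it did without ESC_0h replicate 1 (-0.68) and after quantile normalization (-0.61). With mean coverage of 0.892 or less per base in each group and 97.7% coding identity to Ly6c1, these levels are uncertain.

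Ly6e was at 248, 203 and 247 TPM in ESC_0h and at 218, 277 and 217 TPM at noRA_12h. These groups overlapped, and the difference was 0.03 ± 0.16 SE. At noRA_24h the libraries were at 137, 131 and 141 TPM, all below ESC_0h, a 1.70-fold fall (-0.76 ± 0.16).

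Ly6g6e, from the other chromosome, was at 71.1, 67.2 and 66.3 TPM in ESC_0h, at 7.0, 6.90 and 8.53 TPM at noRA_12h and at 2.50, 0.799 and 2.25 TPM at noRA_24h. Each group lay below the one before it. It fell 9.12-fold by 12 h (log2 difference -3.03 ± 0.20 SE) and 36.9-fold by 24 h (-4.66 ± 0.20). Ly6g6d, which overlaps it on the opposite strand, fell alongside, from 8.14 ± 0.492 TPM (SD, n = 3) to 1.80 ± 0.541 and 1.34 ± 0.412 TPM. How reads were divided between the pair was not tested.

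Ly6k was at 8.50, 9.82 and 9.20 TPM in ESC_0h, at 5.62, 5.42 and 5.32 TPM at noRA_12h and at 5.74, 4.2 and 5.09 TPM at noRA_24h. Both later groups lay below ESC_0h and overlapped each other. The differences from ESC_0h were -0.65 ± 0.12 SE and -0.77 ± 0.12. The antisense gene Gm17189 had 0.810 TPM or less in every time course library, the highest being in ESC_0h.

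Ly6h, the brain-expressed member, was at 0, 0.0547 and 0.454 TPM in ESC_0h and at 1.36, 0.455 and 0.666 TPM at noRA_12h (log2 difference 0.63 ± 0.22 SE). The closest libraries of these groups were nearly equal, and the call was lost without ESC_0h replicate 1 (0.53) or 2 (0.57), or without noRA_12h replicate 1 (0.43). At noRA_24h its libraries, at 0.144, 0.575 and 0.215 TPM, overlapped ESC_0h. Ly6g6c was at 0.532, 1.08 and 1.16 TPM in ESC_0h, 0.325, 1.09 and 0.434 TPM at noRA_12h and 0.336, 0.886 and 0.253 TPM at noRA_24h, and neither difference passed the threshold.

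**Figure D2:**
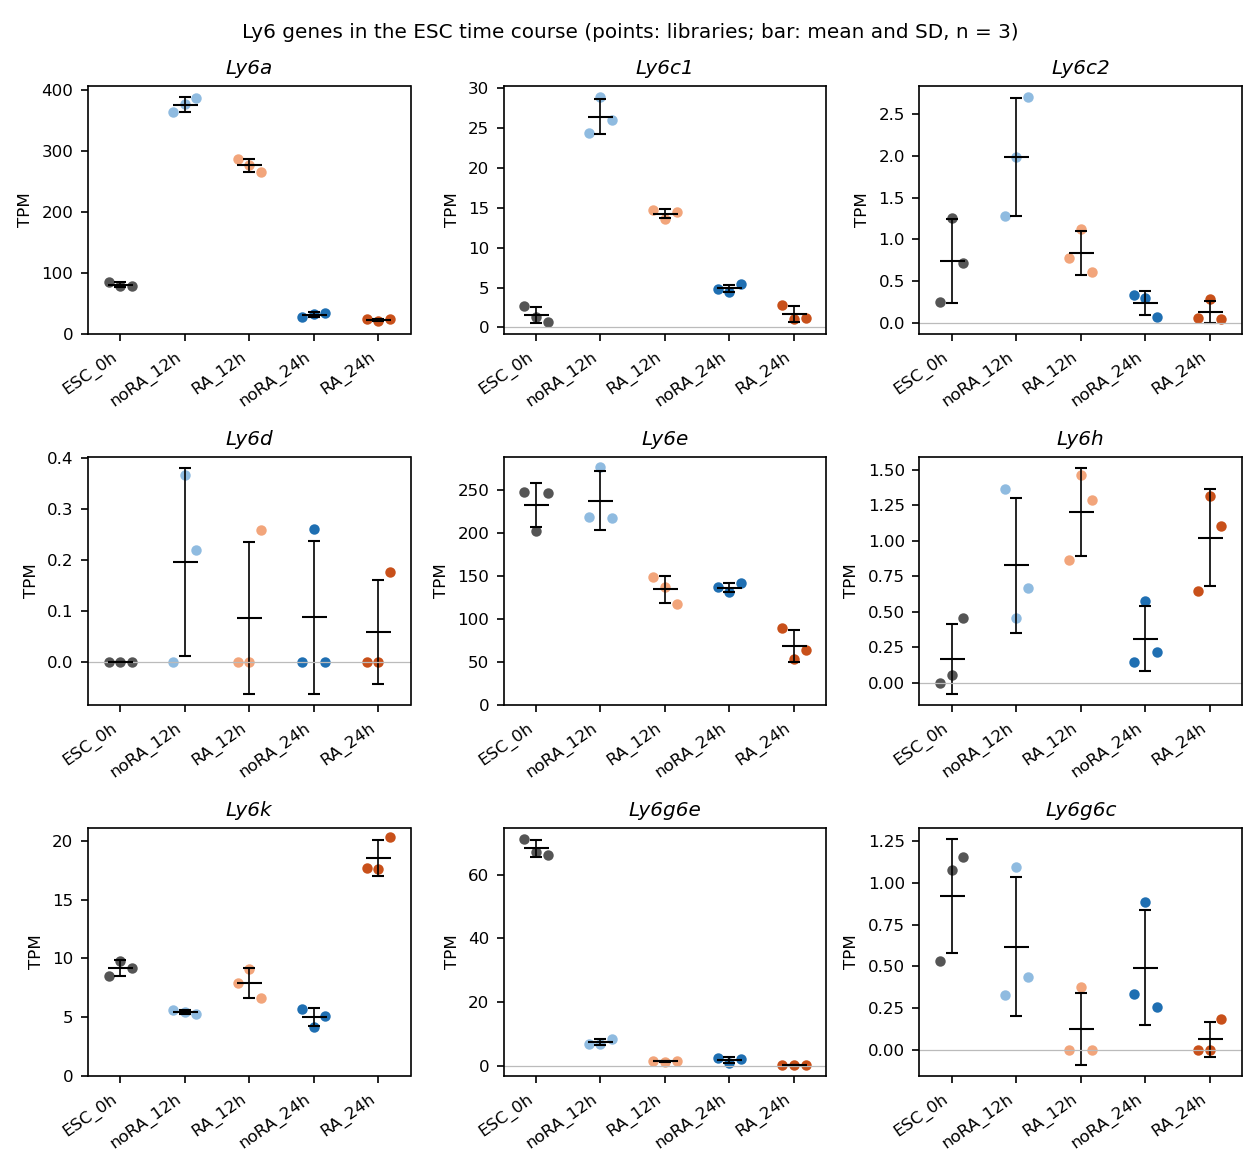
Each panel plots the TPM (vertical axis) of a Ly6 gene in the 15 time course libraries by group. Points are libraries and the bars give the mean and SD of 3. Ly6a, Ly6c1 and Ly6c2 peak at noRA_12h, Ly6g6e is at 66.3 to 71.1 TPM in ESC_0h and at 8.53 TPM or less elsewhere, and Ly6k is highest at RA_24h (17.6 to 20.3 TPM).

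The second comparison sets RA against no RA at the same time. The labels do not say whether the RA groups also lacked LIF/2i, so RA cannot be told apart from LIF/2i here. The term RA effect names the difference between these groups, whatever its source. At 12 h, 5 of the 8 tested members were lower with RA (Ly6a, Ly6c1, Ly6c2, Ly6e and Ly6g6e) and 1 was higher (Ly6k), beside 7.19% and 10.2% of all genes. At 24 h, 4 were lower (Ly6a, Ly6c1, Ly6e and Ly6g6e) and 2 were higher (Ly6k and Ly6h), beside 12.5% and 22.8% of all genes. Ly6c2, called lower at 12 h, had passed the filter only through its noRA_12h libraries. With the 24 h groups fitted alone 4 members were called, and Ly6g6e and Ly6h did not pass the filter there. The median difference of the 8 was -0.60 at 12 h and -0.46 at 24 h, against -0.01 and 0.02 over all genes. The genes were chosen with these values known, so nothing is read from these counts or medians. The count at 12 h was 3 of 8 without noRA_12h replicate 3, without RA_12h replicate 1 and without RA_12h replicate 2.

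Ly6a was at 286, 277 and 266 TPM at RA_12h, below all noRA_12h libraries, and at 24.4, 20.9 and 24.7 TPM at RA_24h, below all noRA_24h libraries. The difference from no RA was -0.44 ± 0.08 SE at both times, a ratio of 0.735 at 12 h and 0.726 at 24 h. The RA libraries at 12 h were still 3.41-fold above ESC_0h on average, so the peak at 12 h was present with RA as without it. From RA_12h to RA_24h the mean differed 11.8-fold, against 11.7-fold without RA.

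Ly6c1 was at 14.7, 13.6 and 14.4 TPM at RA_12h and at 2.85, 1.03 and 1.22 TPM at RA_24h. Both groups lay below their no-RA partner, and at 24 h the RA libraries overlapped ESC_0h. The differences were -0.84 ± 0.26 SE at 12 h and -1.19 ± 0.26 at 24 h. The 12 h call was lost without any 1 of the 6 libraries compared, with no filter, with a pseudocount of 0.1 and after quantile normalization, with the difference at -0.90 to -0.74 throughout.

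Ly6c2 was at 0.776, 1.13 and 0.612 TPM at RA_12h, below the noRA_12h libraries (-0.68 ± 0.22 SE). This call was lost under 10 of 12 other settings, among them without noRA_12h replicates 2 (-0.67) or 3 (-0.52) and without RA_12h replicates 1 (-0.66), 2 (-0.79) or 3 (-0.59). At RA_24h it was at 0.0685, 0.289 and 0.0532 TPM, overlapping noRA_24h.

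Ly6e was at 148, 137 and 118 TPM at RA_12h and at 89.8, 53.7 and 64.2 TPM at RA_24h. All lay below their no-RA partners, with a ratio of 0.566 at 12 h (-0.81 ± 0.16 SE) and 0.507 at 24 h (-1.0 ± 0.16). The RA_12h libraries overlapped those of noRA_24h.

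Ly6g6e was at 1.51, 1.22 and 1.54 TPM at RA_12h, against 6.90 to 8.53 TPM without RA (-1.80 ± 0.20 SE, a 5.24-fold lower mean). At RA_24h it was at 0.296, 0.329 and 0.320 TPM, below all noRA_24h libraries (-1.06 ± 0.20, a 5.87-fold lower mean). On the log2 scale the second difference is the smaller because both groups are near the pseudocount of 1. Compared with ESC_0h, the RA_24h mean was 216-fold lower.

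Ly6k went the other way. It was at 7.94, 9.14 and 6.64 TPM at RA_12h, above all noRA_12h libraries and overlapping ESC_0h, and at 17.7, 17.6 and 20.3 TPM at RA_24h, above every other time course library. The difference from no RA was 0.46 ± 0.12 SE at 12 h and 1.70 ± 0.12 at 24 h, a ratio of 1.45 and 3.70. The 12 h call was lost without noRA_12h replicate 3 (0.44), without RA_12h replicate 1 (0.45) or 2 (0.36), and with the 2 groups fitted alone. Gm17189 on the opposite strand was at 0.106 to 0.238 TPM at RA_24h, its lowest group mean.

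Ly6h was at 0.863, 1.46 and 1.28 TPM at RA_12h, overlapping noRA_12h, and at 0.649, 1.31 and 1.10 TPM at RA_24h, above noRA_24h (0.62 ± 0.22 SE). The 24 h call was lost without noRA_24h replicate 1 (0.53) or 3 (0.58), without RA_24h replicate 2 (0.52) or 3 (0.59), with no filter, with a pseudocount of 0.1 and with a replicate block. Ly6g6c was at 0, 0.375 and 0 TPM at RA_12h and at 0, 0 and 0.184 TPM at RA_24h. Its differences of -0.51 and -0.47 did not pass the threshold, although at 24 h its libraries did not overlap those without RA. A pseudocount of 0.1 brought the latter past the threshold (-1.91). That value rests on values near 0, and Ly6g6c had passed the filter only through libraries without RA. Ly6d was listed at 0 in 10 of the 15 time course libraries.

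The change of the RA effect from 12 h to 24 h was tested as an interaction in the same model. Ly6k was the 1 member of 8 called (1.25 ± 0.17 SE, higher at 24 h), beside 4.17% of all genes called higher and 2.68% lower. The split of all genes was 581 higher and 374 lower, and 279 and 320 after quantile normalization. The other 7 ranged from -0.34 (Ly6c1) to 0.75 (Ly6g6e) and did not pass the threshold. With FPKM in place of TPM, Ly6g6e passed too (0.74), and over the other settings its value went down to 0.22. Its TPM ratio of RA to no RA was 0.191 at 12 h and 0.170 at 24 h, so that ratio showed no weaker RA effect at 24 h.

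**Figure D3:**
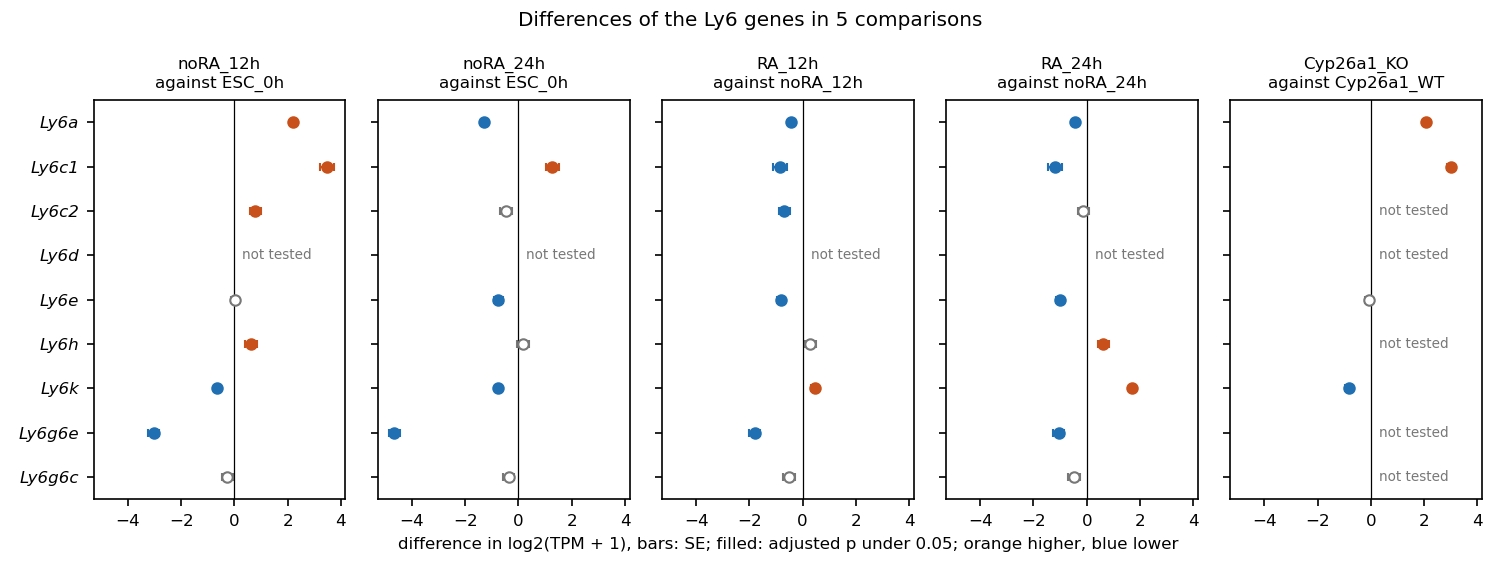
Points give the difference in log2(TPM + 1) of each Ly6 gene (horizontal axes) in 5 comparisons, with SE bars. Filled points passed an adjusted p of 0.05 in limma, orange higher and blue lower in the group named first, and open points did not. Ly6a and Ly6c1 are lower with RA at both times and higher in the knockout, and Ly6k is the reverse in those 3 panels.

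The third comparison sets the Cyp26a1 knockout against wild type after 24 h of RA. The labels name no clone, so loss of the RA-degrading enzyme cannot be told apart from differences between clones or cultures. Of the 4 members tested, Ly6a and Ly6c1 were higher, Ly6k was lower and Ly6e did not pass the threshold. Over all 12848 genes tested, 3.34% were higher and 6.65% lower in the knockout. These are 429 and 855 genes; with median-of-ratios scaling the split was 525 and 584, and after quantile normalization 395 and 477. Leaving out 1 library at a time moved the total of 1284 to between 314 (without Cyp26a1_WT replicate 3) and 3156 (without Cyp26a1_KO replicate 3).

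Ly6a was at 14.2, 14.6 and 12.0 TPM in Cyp26a1_WT and at 60.1, 63.7 and 55.6 TPM in Cyp26a1_KO. The groups were far apart, with a 4.40-fold higher mean in the knockout (log2 difference 2.06 ± 0.10 SE). Ly6c1 was at 0.560, 1.09 and 1.13 TPM in wild type and at 14.4, 14.4 and 14.6 TPM in the knockout, 15.6-fold higher (3.02 ± 0.15). Its wild-type libraries alone would not have met the filter of 1 TPM in 3 libraries, so Ly6c1 was tested through the knockout, its higher group. Together Ly6a and Ly6c1 supplied 59.4% to 65.5% of the summed Ly6 TPM in the knockout and 19.2% to 23.2% in wild type. Ly6c2, the near-copy of Ly6c1, was listed at 0 in all 3 wild-type libraries and at 0, 0.280 and 0 TPM in the knockout, so the tables assign the rise to Ly6c1 alone.

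Ly6k was at 14.7, 17.1 and 14.6 TPM in wild type and at 9.46, 9.05 and 6.65 TPM in the knockout. The groups did not overlap, and the mean was 1.85-fold lower (-0.82 ± 0.14 SE). This call was lost after quantile normalization (-0.74), without Cyp26a1_KO replicate 2 (-0.88) and without Cyp26a1_WT replicate 1 (-0.86), 2 (-0.75) or 3 (-0.86). Ly6e, at 36.6, 33.9 and 39.7 TPM in wild type and 40.5, 34.8 and 29.4 TPM in the knockout, overlapped between genotypes (-0.08 ± 0.13).

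The other 5 members were scarce in this set. Ly6h was at 0.977, 0.605 and 0.80 TPM in wild type and 0.450, 1.41 and 0 TPM in the knockout. Ly6g6e did not exceed 0.452 TPM, Ly6d did not exceed 0.650 TPM, and Ly6g6c was listed at 0 in all 6 libraries. All 8 primitive endoderm markers, such as Gata6 and Sox17, were lower in the knockout (summed 150 to 158 TPM, against 370 to 396 in wild type), and all 6 ESC markers were higher (7805 to 8536 against 6043 to 6320 TPM). In the time course the same 8 endoderm markers were all higher with RA at 24 h (216 to 246 against 42.5 to 49.3 TPM), while 4 ESC markers were lower and 2 higher. Of the trophoblast markers, 5 of 6 tested were higher with RA at 24 h (7 summed, 90.5 to 115 against 47.8 to 51.1 TPM), and in the knockout 1 of 5 tested was lower (104 to 118 against 140 to 149 TPM). The part of these markers in the Ly6 values was not tested.

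**Figure D4:**
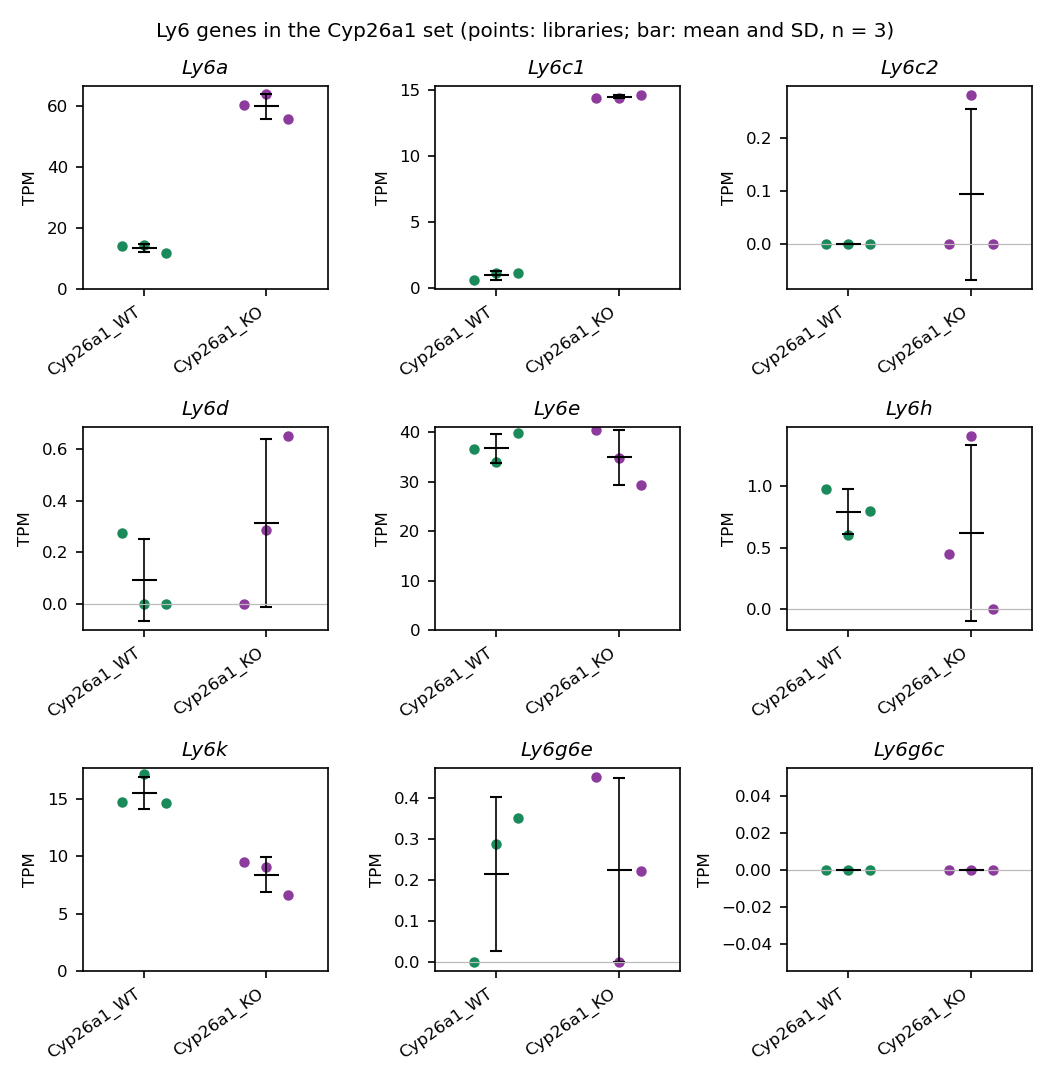
Each panel plots the TPM (vertical axis) of a Ly6 gene in the 3 Cyp26a1_WT and 3 Cyp26a1_KO libraries. Points are libraries and bars give the mean and SD. Ly6a and Ly6c1 lie higher in all knockout libraries, Ly6k lies lower, and Ly6e overlaps.

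Genes whose time course was most like that of a member, by Pearson r of log2(TPM + 1) over the 15 libraries, are given as a description. The libraries share 5 groups, so r mostly reflects the group means. For Ly6a they were Mcm3ap (0.985), Dyrk3 (0.981) and Top3b (0.979). For Ly6c1 they were Dgka (0.977), Arc (0.974) and Tgif1 (0.974). Arc, an immediate early gene best known from neurons, lies within 1 Mb of the Ly6 genes on chromosome 15. For Ly6k they were Plat (0.969), Hoxb9 (0.963) and Fignl2 (0.954), for Ly6e Arhgef18 (0.973), Foxp4 (0.973) and Gstm2 (0.972), and for Ly6g6e Ahnak2 (0.986), Pla2g4e (0.983) and Patz1 (0.982). The scarce members reached less: Ly6c2 with Ociad1 (0.931), Ly6h with Xylt1 (0.895) and Ly6g6c with Eef2kmt (0.859). Among the members, r was 0.830 between Ly6a and Ly6c2, 0.823 between Ly6a and Ly6c1, 0.655 between the near-copies Ly6c1 and Ly6c2, 0.778 between Ly6e and Ly6g6e, and -0.655 between Ly6e and Ly6k.

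Neighbouring genes are given by counts, to be read against the shares of all genes: 22.0% higher and 20.4% lower at noRA_12h, 25.4% and 26.5% at noRA_24h, 10.2% and 7.19% with RA at 12 h, and 22.8% and 12.5% with RA at 24 h. Within 1 Mb of the chromosome 15 members, 44 of 80 other genes were tested. Of these, 10 were higher and 4 lower at noRA_12h against ESC_0h, and 4 and 16 at noRA_24h. With RA, 4 were higher and 7 lower at 12 h, and 12 and 4 at 24 h. Within 0.1 Mb of the chromosome 17 members, 17 of 26 were tested, with 1 higher and 8 lower at noRA_12h and 1 higher and 10 lower at noRA_24h, where their median was -0.41. With RA, 1 was higher and 2 lower at 12 h, and 5 and 1 at 24 h.

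Of 33 other genes of the same protein family, 8 were tested in the time course. Compared with ESC_0h, 1 gene had risen and 4 had fallen at noRA_12h, beside 22.0% and 20.4% of all genes. At noRA_24h 2 had risen and 3 fallen, beside 25.4% and 26.5% of all genes. Plaur, the urokinase receptor, was at 8.91 to 11.4 TPM in ESC_0h and 63.7 to 73.8 TPM at noRA_12h (2.67 ± 0.11 SE, limma adjusted p = 4.72e-10), and at 24 h it was still higher by 2.06 ± 0.11 (adjusted p = 4.28e-09). Its peak at 12 h was lower with RA (-0.49 ± 0.11, adjusted p = 0.00603), but at 24 h its groups overlapped. The largest falls at noRA_12h were those of Ly6g6d (-1.72 ± 0.23, adjusted p = 3.90e-05) and Cd59b, an inhibitor of complement lysis (-1.69 ± 0.23, adjusted p = 5.24e-05). Gml2 was listed at 0 in ESC_0h and at 1.08 to 2.39 TPM at noRA_24h, and Ly6g5c was listed at 0 at noRA_12h.

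With RA, 2 of these 8 family genes rose and 1 fell at 12 h, beside 10.2% and 7.19% of all genes. At 24 h 2 rose and none fell, beside 22.8% and 12.5%. Tex101, the partner of Ly6k, was at 11.8 to 14.5 TPM at noRA_12h and 21.5 to 23.5 TPM at RA_12h (0.69 ± 0.10 SE, limma adjusted p = 0.000281). At 24 h it was at 10.5 to 12.8 TPM without RA and 20.2 to 24.6 TPM with RA (0.87 ± 0.10, adjusted p = 1.92e-05). Psca, the prostate stem cell antigen, was higher with RA at 12 h (0.81 ± 0.23, adjusted p = 0.0297), and Ly6g5c at 24 h (0.63 ± 0.17, adjusted p = 0.00989). In the Cyp26a1 set none of the 5 family genes tested in limma passed the threshold, and 1 had an unadjusted p under 0.05. Tex101 was at 24.7 to 25.9 TPM in wild type and 22.8 to 24.9 TPM in the knockout.

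Of 5 listed binding partners, Tex101 and Chrna7 were tested. Chrna7, the nicotinic receptor subunit bound by Ly6h, was at 0.342 to 1.07 TPM in ESC_0h and 3.43 to 4.28 TPM at noRA_24h (1.51 ± 0.28 SE, limma adjusted p = 0.000457). The RA groups of Chrna7 did not differ past the threshold from their partners. Syna, which encodes syncytin-A, was not tested, because it did not reach 1 TPM in 3 libraries.

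The 28 genes of GPI anchor synthesis were all tested. At noRA_12h 2 were higher and 11 lower, beside 22.0% and 20.4% of all genes, and at noRA_24h 4 and 13, beside 25.4% and 26.5%. Piga, of the first step of the pathway, fell by 1.55 ± 0.32 SE at 12 h (limma adjusted p = 0.00149), and Pgap2, which remodels the anchor's lipid, fell by 0.69 ± 0.11 (adjusted p = 0.00019). Pigl rose by 0.47 ± 0.06 (adjusted p = 3.86e-05). RA at 12 h left 27 of 28 short of the threshold, with Pigh higher (0.35 ± 0.11, adjusted p = 0.0486). At 24 h 9 were higher and none lower with RA, beside 22.8% and 12.5% of all genes, led by Dpm3 (0.73 ± 0.14, adjusted p = 0.00124) and Mppe1 (0.70 ± 0.09, adjusted p = 6.63e-05). The list's median at RA_24h was 0.15, against 0.02 over all genes. In the knockout 2 of 28 were lower, close to the 6.65% of all genes: Pigu (-0.35 ± 0.08, adjusted p = 0.0387) and Pigq (-0.27 ± 0.06, adjusted p = 0.0376).

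Of 32 interferon-responsive genes, 15 were tested in each set. At noRA_12h 2 were higher and 6 lower, beside 22.0% and 20.4% of all genes, and at noRA_24h 5 and 6, beside 25.4% and 26.5%. Ddx58, the RNA sensor RIG-I, and Ifitm3, a restriction factor for viral entry, rose at 12 h by 1.64 ± 0.25 SE (limma adjusted p = 0.00013) and 1.28 ± 0.06 (adjusted p = 2.36e-09). RA at 12 h had 5 lower and none higher, beside 7.19% and 10.2% of all genes, but the median of the 15 was 0.15, against -0.01 over all genes. RA at 24 h had 8 lower and 1 higher, beside 12.5% and 22.8% of all genes, and the median was -0.34, against 0.02. Among them were Ddx58 at -2.03 ± 0.25 (adjusted p = 3.02e-05) and Irf1 at -1.87 ± 0.07 (adjusted p = 7.93e-10). Ifit1, a gene strongly induced by interferon, was listed at 0 in ESC_0h, noRA_12h, RA_12h and RA_24h.

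Of the 15 interferon-responsive genes tested in the knockout, 3 were higher and none lower, beside 3.34% and 6.65% of all genes. Oas1a was at 12.3 to 17.1 TPM in wild type and 35.4 to 41.4 TPM in the knockout (1.39 ± 0.13 SE, limma adjusted p = 0.00276). Ifitm1 was at 64.7 to 72.8 and 97.8 to 119 TPM (0.64 ± 0.09, adjusted p = 0.00812), and Ifitm3 at 119 to 132 and 178 to 207 TPM (0.60 ± 0.07, adjusted p = 0.00596). Each of these 3 was lower with RA at 24 h in the time course: Oas1a at -0.68 ± 0.10 (adjusted p = 0.00017), Ifitm1 at -0.89 ± 0.08 (adjusted p = 3.13e-06) and Ifitm3 at -0.53 ± 0.06 (adjusted p = 1.97e-05). Of the other 5 that were lower with RA at 24 h, Irf1, Ifitm2, Bst2 and Ddx58 did not pass the threshold in the knockout and Xaf1 was not tested there. Ly6a and Ly6c1 were lower with RA at 24 h and higher in the knockout. Ly6e was lower with RA (-1.0) and did not pass the threshold in the knockout (-0.08). The sets may rest on different gene models, and the part of this in such contrasts was not tested.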

How the data were processed

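Every library has a table of gene abundances with 3 value columns. The submitters' processing notes name HISAT2, StringTie and the mm10 build, without versions or settings. The deposited coverage column is a signal, taken by its name as the average depth of reads over the bases of a gene. The authors' FPKM values account for length and library size. The authors' TPM values do so too and, by the usual meaning of the name, add up to the same total in each library. Read counts were not used, and a gene listed at 0 may be a failed estimate.

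The time course lists 32285 gene IDs and the Cyp26a1 set 25239, and the members' IDs differ in form between the sets. The sets may therefore rest on different gene models, and the M21 overlaps may not hold for both. Rows with the same gene ID were summed. A gene entered the test of a set when 3 or more of its libraries held 1 TPM or more. Values were log2(TPM + 1), fitted with limma 3.58.1 in R 4.3.3 (eBayes with trend), and p-values were adjusted by Benjamini-Hochberg over all genes, with calls at 0.05. The 15 time course libraries formed 1 model and the 6 Cyp26a1 set libraries another, and levels were not compared between sets. With a pseudocount of 1, the log2 difference of a scarce gene understates its TPM ratio. The test was checked on simulated data. Depth was estimated as the most common value of coverage divided by FPKM, which 9.89% to 10.6% of genes held in each time course library and 56.6% to 57.3% in the other set. Sequence windows and coding identity came from GENCODE M21 transcripts.

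The members and all lists were chosen with earlier results of these data known. All 9 members are named. From each other list, names were taken from the 2 highest and 2 lowest called genes per comparison, and for likeness the 3 genes nearest each member were listed, predicted gene models left out; Gml2, Ly6g5c, Ifit1 and genes repeated across comparisons were named after their values were seen. The other settings changed the pseudocount to 0.1, dropped the filter or asked for a mean of 5 TPM, used FPKM, median-of-ratios scaling or quantile normalization, fitted the compared groups alone, added a replicate block, or left out each library. Same-numbered libraries of the Cyp26a1 set had a Pearson r of deviations of 0.319, 0.189 and 0.536. Unlike-numbered libraries had r of -0.461 to 0.268, so pairing by number is uncertain. The differences and SE given come from the model without pairs, and pairs by number entered only as the replicate block.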

Additional observations from a re-analysis of the deposited data

Results flagged for a closer look

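Ly6k was flagged because its difference between RA and no RA changed between the times by a test of the change itself. The RA effect at 24 h exceeded that at 12 h by 1.25 on the log2(TPM + 1) scale (SE 0.17). The effect was 0.46 at 12 h and 1.70 at 24 h. The call was made under every one of the 20 other settings, with the difference between 1.11 and 1.36. Ly6k was among the genes chosen with these values known, so the flag is a description. Its exons overlap Gm17189 on the opposite strand over 395 bases, and Gm17189 stood at 0.171 TPM on average at RA_24h, against 18.5 TPM for Ly6k.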

How the results depend on the processing

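No member's difference that was called changed sign under another setting. Of the values for single members under other settings, 575 kept their side of the threshold, 41 lost it and 4 gained it. The count of members called at RA_12h against noRA_12h was 6, and 3 to 5 when 1 library was left out. With FPKM, 2 members were called for the change of the RA effect, against 1. Leaving out 1 library gave 4 to 6 members at noRA_12h and 5 to 6 at noRA_24h against ESC_0h, 5 to 6 at RA_24h and 2 to 3 in the knockout. With the replicate block the Cyp26a1 set gave 3 members called, and the pairing changed no member's call there. In the time course the numbers do not pair the libraries (r of -0.837 to 0.415), and with the block the count at RA_24h was 5 because Ly6h was lost. Over all genes, 955 were called for the change of the RA effect, against 599 after quantile normalization and 1620 without RA_24h replicate 2. RA_24h against noRA_24h gave 4915, and 7531 without that replicate. The knockout comparison gave 1284, and 314 to 3156 when 1 library was left out. The causes were not tested. Ly6c2 and Ly6h, under 3 TPM in every library, rest on thin coverage.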
